A study of Homo sapiens with 10 samples.

Results

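A conjugate of estradiol with bovine serum albumin, named estradiol-BSA, was set against free estradiol on 8 of the 10 arrays of a study of 2 human lung cancer cell lines. The 4 arrays with estradiol-BSA and the 4 arrays with free estradiol form 4 pairs, each matched for cell line and for the presence of tamoxifen, and the 2 vehicle arrays entered no test. HTB-182 is an established squamous cell carcinoma line, which the series title calls H520, and A549 is an established lung adenocarcinoma line. Cells of both lines spent 4 h in medium with 10% charcoal-stripped serum, which is depleted of steroids, and then 3 h in the same kind of medium with 1 of 5 additions. HTB-182 and A549 each received ethanol vehicle (0.1%), 1 µM estradiol, 1 µM estradiol with 10 µM tamoxifen, 1 µM estradiol-BSA, or 1 µM estradiol-BSA with 10 µM tamoxifen. Each combination is a single array and no replicate cultures are stated, so the p-values below reflect only how much these arrays vary, some of which may be technical. The labels list no array with albumin alone or with tamoxifen alone. A difference between both forms therefore compares the conjugate, albumin included, with the free hormone. It is not given here whether the stated 1 µM of conjugate counts the albumin or the estradiol on it. For the arrays with estradiol plus tamoxifen, the source descriptions list both agents and were followed, although the titles mention only tamoxifen. The A549 arrays carry a source name that combines the lines, but their cell line entry is A549.

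Estradiol crosses membranes and binds the nuclear receptors encoded by ESR1 and ESR2, which act as transcription factors, and a fraction of these receptors, together with the G protein-coupled receptor encoded by GPER1, signals from the cell surface. Estradiol-BSA is used as a ligand that is too large to cross the plasma membrane readily, and the series used it for signals that start at membrane receptors. Tamoxifen binds estrogen receptors and is mostly an antagonist at the nuclear receptors. The ID genes, ID1 to ID4, encode short helix-loop-helix proteins that lack a DNA-binding region. They pair with E proteins such as TCF3 and TCF12, keep them off DNA, and are early targets of bone morphogenetic protein (BMP) signalling through SMAD1 and SMAD5 in many cell types. SMAD6, SMAD7 and BAMBI are feedback inhibitors of the same pathway.

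Values are intensities per probe set on a linear scale, and differences are estradiol-BSA minus estradiol on the log2(intensity + 16) scale, which understates the change of dim genes. Where 4 pair differences are listed, their order is HTB-182 without tamoxifen, HTB-182 with tamoxifen, A549 without tamoxifen and A549 with tamoxifen. Median intensities of the 8 arrays ran from 17.5 to 19.4. The first principal component held 95.5% of the variance and separated the lines, and on the second, with 1.99%, the A549 array with estradiol alone stood at 24.1 while the other 7 arrays lay between -12.5 and 1.56. The A549 pair without tamoxifen rests on that array. The 3′ to 5′ ratio of the GAPDH control probe sets, a measure of RNA integrity, was 1.45 to 1.74. It was higher with estradiol-BSA in 3 of 4 pairs. That of ACTB was higher with estradiol-BSA in 4 of 4 pairs, at 3.74 against 4.38 and 4.61 against 6.13 in HTB-182 without and with tamoxifen, and 2.66 against 3.53 and 3.41 against 3.57 in A549. These ratios thus moved with the form, and their part in the differences below was not tested.

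The line labels were checked against markers. Summed over 12 measured squamous markers, HTB-182 gave 4095 to 4619 with estradiol and 4245 to 4497 with estradiol-BSA, against 371 to 395 and 375 to 423 in A549. That sum was mostly SOX2, with a mean of 4108 in HTB-182, and KRT5 (20.4), DSG3 (13.5) and KRT14 (8.41) were near background there. A set of 16 alveolar and adenocarcinoma markers summed to 1447 to 1530 in HTB-182 and to 30989 to 32483 in A549. KRT7, at 3217, and AKR1B10, at 12557, were among the bright ones in A549, where NKX2-1 (15.9) and SFTPC (44.4) were not. The 10 neuroendocrine markers summed to 4061 to 4378 in HTB-182 and 560 to 660 in A549. In HTB-182 that sum was mostly CHGB (1920) and SYT1 (1696), with INSM1 at 341. CHGA (8.05 in HTB-182 and 10.7 in A549) and SYP (26.3 and 26.1) were dim in both lines, and DLL3 was higher in A549 (25.5 and 66.5). For 14 mesenchymal markers the A549 sums were 13151 to 13825 with estradiol and 12282 to 12392 with estradiol-BSA. In HTB-182 they went the other way, with 5746 to 5816 and 5886 to 6034. FN1 (3797 in HTB-182 and 6529 in A549) and VIM (870 and 4882) were the brightest members. For 10 blood and endothelial markers every sum in both lines was 220 to 330. Markers without a probe set that names them alone, among them TP63, KRT6A, SFTPA1, NEUROD1, HBA1 and CD68, were not analysed here.

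ID1 and ID2 fell with estradiol-BSA relative to free estradiol in the fit over all 4 pairs, in which no gene was called higher. They were the 2 genes of 12969 tested (0.0154%) that passed the paired limma fit at a Benjamini-Hochberg adjusted p of 0.05. At an unadjusted p of 0.05 the fit marked 756 genes (5.83%), 515 of them higher with estradiol-BSA (3.97%) and 241 lower (1.86%). The half-width of the 95% confidence interval was 0.21 on the log2 scale for the median gene, or 1.16-fold, and for 99.8% of genes the whole interval lay within 2-fold in either direction. For the median gene these arrays therefore leave room for differences of about 1.16-fold on either side of its estimate, and for larger ones in genes with wider intervals.

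ID1 read 972 with estradiol and 378 with estradiol-BSA in HTB-182 without tamoxifen, and 758 and 337 with tamoxifen. A549 gave 2442 and 1418 without tamoxifen, and 2393 and 1351 with it. Within each line both arrays with the conjugate lay below both arrays with free estradiol. The pair differences were -1.33, -1.13, -0.78 and -0.82. Their mean was -1.01 (SE 0.09, 4 pairs, 95% interval -1.22 to -0.81), a 2.02-fold decrease with an adjusted p of 0.00369 in limma. ID1 was the only gene of 12969 (0.00771%) at least 1.5-fold lower in all 4 pairs, and no gene was that much higher. ID2 fell just short, with its weakest pair at -0.5844, where 1.5-fold is 0.5850 on the log2 scale. ID1 has no other probe set that names it alone.

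For ID2 the HTB-182 intensities were 833 and 804 with estradiol, without and with tamoxifen, and 550 and 490 with estradiol-BSA. A549 gave 900 and 901 with estradiol and 491 and 587 with estradiol-BSA. All 4 arrays with free estradiol were above all 4 arrays with the conjugate. The mean difference was -0.68 (SE 0.08, 4 pairs at -0.58, -0.69, -0.85 and -0.61), a 1.61-fold decrease with an adjusted p of 0.0173 in limma. The other ID2 probe set gave -0.51. An exact sign-flip test over 4 pairs cannot go below a two-sided p of 0.125, which ID1 and ID2 both reached, so the calls draw on the spread that limma shares across genes. Without the A549 pair with tamoxifen no gene was called (686 had an unadjusted p below 0.05 in limma), and ID1 had an adjusted p of 0.186 and ID2 of 0.580, at means of -1.08 and -0.71.

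ID3 was lower in all 4 pairs too, with the A549 pairs at larger values, although the test between lines gave an adjusted p of 0.148 in limma. HTB-182 gave 1961 and 1929 with estradiol and 1522 and 1576 with estradiol-BSA, and A549 gave 2053 and 1688 with estradiol and 893 and 804 with estradiol-BSA. Its pair differences were -0.36, -0.29, -1.19 and -1.05, and the mean of -0.72 (SE 0.13, 4 pairs) had an adjusted p of 0.510 in limma. ID3 passed when either HTB-182 pair was left out, with an adjusted p of 0.0286 without the pair lacking tamoxifen and 0.00921 without the pair with tamoxifen. ID4 intensities were 936 and 1031 with estradiol and 868 and 940 with estradiol-BSA in HTB-182, where the groups overlapped. In A549 they were 519 and 693 against 227 and 246, well apart. The mean of the 4 pairs was -0.70 (SE 0.19, adjusted p = 0.843 in limma), and its 4 other probe sets gave -0.50 to -0.02. On the vehicle arrays, which have no pair, ID1 read 807 in HTB-182 and 2968 in A549, and ID3 read 1974 and 2077. ID4 read 1082 and 384 there. ID2 read 827 in HTB-182 but 39.4 in A549, far below the 491 to 901 of the other A549 arrays. The direction of all 4 ID genes was the same under each of the scalings tried.

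The stretches just upstream of the ID gene starts are printed because the 4 genes are the members of 1 family on which the comparison turns. Each is 250 bases that end at the base before the transcription start, from RefSeq on GRCh38.p14, written 5′ to 3′ on the strand of the gene. They lie in the promoter, outside the transcribed gene, at chr20:31605039-31605288 on the plus strand for ID1, chr2:8681806-8682055 plus for ID2, chr1:23559502-23559751 minus for ID3 and chr6:19837120-19837369 plus for ID4. Capitals mark CAGAC, the short SMAD-binding box, CCAAT, the CCAAT box, and TATAA, the TATA core, each on either strand.
ID1: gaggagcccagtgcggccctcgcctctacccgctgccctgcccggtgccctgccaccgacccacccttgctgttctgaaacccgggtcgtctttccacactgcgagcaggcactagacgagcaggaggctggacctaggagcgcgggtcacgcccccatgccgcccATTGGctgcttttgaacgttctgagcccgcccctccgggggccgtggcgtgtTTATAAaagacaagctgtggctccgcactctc
ID2: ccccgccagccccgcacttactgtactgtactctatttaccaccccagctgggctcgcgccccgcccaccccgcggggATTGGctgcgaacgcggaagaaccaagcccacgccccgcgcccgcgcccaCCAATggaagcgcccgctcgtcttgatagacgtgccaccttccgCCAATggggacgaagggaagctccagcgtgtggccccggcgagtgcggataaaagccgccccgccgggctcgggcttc
ID3: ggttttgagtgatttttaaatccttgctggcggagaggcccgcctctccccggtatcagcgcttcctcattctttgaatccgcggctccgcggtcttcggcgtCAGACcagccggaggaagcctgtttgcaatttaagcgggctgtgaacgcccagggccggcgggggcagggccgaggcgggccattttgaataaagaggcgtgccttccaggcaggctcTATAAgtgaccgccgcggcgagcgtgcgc
ID4: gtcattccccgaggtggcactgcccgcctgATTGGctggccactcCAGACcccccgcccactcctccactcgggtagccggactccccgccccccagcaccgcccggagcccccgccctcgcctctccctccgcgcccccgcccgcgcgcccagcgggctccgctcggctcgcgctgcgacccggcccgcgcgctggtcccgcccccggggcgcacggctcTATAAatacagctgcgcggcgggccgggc

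CAGAC or its reverse complement was found once in ID3 and once in ID4 and not in ID1 or ID2, against 38.0% of 35116 promoter windows of the same length. CCAAT, in 32.0% of windows, occurred once in ID1, 3 times in ID2 and once in ID4. TATAA, in 18.9%, occurred once each in ID3 and ID4 and, as both strands overlapping at a single place, 2 times in ID1. GGCGCC, a GC-rich SMAD element that 16.4% of windows hold, was in none of the 4. The palindromic estrogen response element, GGTCA and TGACC with 3 bases between them, was in none either, and in 0.040% of all windows. These are matches of letters in a short window and describe only that window.

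**Figure D1:**
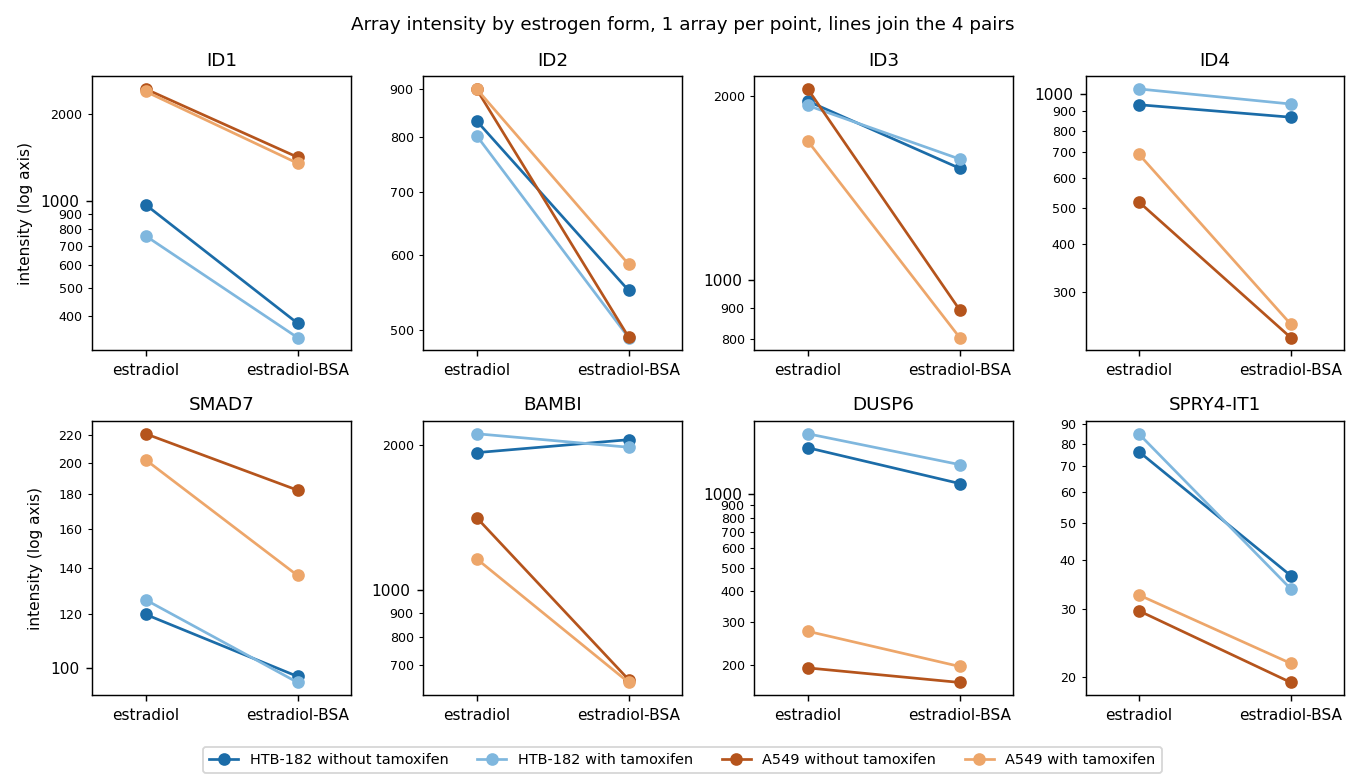
Intensity (log axis) of 8 genes with free estradiol and with estradiol-BSA, 1 array per point, lines joining the 4 pairs by cell line and tamoxifen. ID1 and ID2 are lower with estradiol-BSA in every pair, while ID3, ID4 and BAMBI are lower mainly in A549 and SPRY4-IT1 mainly in HTB-182, at intensities of 19.3 to 84.9.

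Of the ID and BMP-SMAD target list, 16 of 18 genes were bright enough to test (NOG and HAMP were below the filter). Both called genes belong to it, 5 of the 16 were lower in all 4 pairs, where 4.50% of all genes were, and none was higher in all 4, where 9.00% were. The median difference of the list was -0.13 and that of all genes was -0.003. The list was drawn up with these results known, so its count is a description. SMAD7, the inhibitory SMAD of both BMP and TGF-beta signalling, read 120 and 126 with estradiol and 97.2 and 95.2 with estradiol-BSA in HTB-182, and 221 and 202 against 182 and 137 in A549. Every estradiol array of a line was above its estradiol-BSA arrays, and the mean was -0.35 (SE 0.10, adjusted p = 0.843 in limma). BAMBI, a pseudoreceptor that blocks the pathway, read 1930 and 2112 against 2053 and 1980 in HTB-182 and 1416 and 1163 against 654 and 645 in A549. Its groups overlapped in the first line and were far apart in the second. HEY1, a transcriptional repressor of the Notch and BMP responses, had a mean of -0.34 (SE 0.12) with 3 of 4 pairs lower.

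Among 18 tested BMP receptors, ligands and SMADs none passed, with 1 lower and 1 higher in all 4 pairs and a median of -0.03. Over all genes 4.50% were lower and 9.00% higher in all 4 pairs. The ligand BMP6 read 27.4 and 27.0 with estradiol and 24.5 and 25.0 with estradiol-BSA in HTB-182, and 298 and 254 against 58.6 and 187 in A549. Its largest difference, -2.07, was that of the A549 pair without tamoxifen. BMP4, another ligand, gave 0.17, 0.07, -0.91 and -0.49. The type II receptor BMPR2 had a mean of -0.20 (SE 0.09), the common mediator SMAD4 0.20 (SE 0.09), and the BMP and activin antagonist FST, bright in A549 alone, 0.32 (SE 0.16). The 17 tested TGF-beta and activin targets held 6 genes lower in all 4 pairs and 1 higher, with a median of -0.08 and none called. BHLHE40, a basic helix-loop-helix repressor, gave -0.28, -0.17, -0.56 and -0.43. SKIL, a SMAD corepressor, had a mean of -0.28 (SE 0.10), PMEPA1, a feedback inhibitor, -0.23 (SE 0.09), and LDLRAD4, another SMAD inhibitor, -0.27 (SE 0.11). All these adjusted p-values lay between 0.843 and 0.927 in limma. For LDLRAD4 the other probe set above the filter gave 0.13, and those of BMPR2 gave -0.45 to 0.05. Of 16 tested E-protein partners and E-box targets, the direct counterparts of the ID proteins, 2 were lower and 4 higher in all 4 pairs, with a median of 0.00 and none called.

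Feedback genes of the ERK pathway, which are transcribed when the kinase is active and dampen it, were next in the order of list medians. None of 20 tested passed, 6 were lower in all 4 pairs and 0 higher, beside 4.50% and 9.00% of all genes, and the median was -0.10. By pair the medians were -0.20, -0.15, -0.08 and -0.01, beside 0.07, 0.05, -0.10 and -0.03 for all genes, so the list lay below the median of all genes in HTB-182 and close to it in A549. DUSP6, the ERK phosphatase, read 1541 and 1757 with estradiol and 1101 and 1315 with estradiol-BSA in HTB-182, and 195 and 275 against 170 and 198 in A549. The A549 groups overlapped slightly, and the mean was -0.38 (SE 0.08, adjusted p = 0.843 in limma), with -0.64 to -0.27 for its 2 other probe sets. SPRY4-IT1, a long noncoding RNA within the SPRY4 locus, read 76.4 and 84.9 against 36.5 and 33.7 in HTB-182 and 29.6 and 32.5 against 19.3 and 21.6 in A549. It was lower by at least 1.25-fold in all 4 pairs, as only ID1 and ID2 also were (3 genes, 0.0231%), with a mean of -0.64 (SE 0.12, adjusted p = 0.510 in limma). Its dimmer probe set, below the filter, gave 0.01. SPRY4 itself, a Sprouty inhibitor of receptor signalling, read 187 and 238 against 158 and 159, and 61.9 and 64.9 against 44.1 and 45.1, with a mean of -0.39 (SE 0.10). The other Sprouty-type inhibitors SPRY2 and SPRED2 had means of -0.22 (SE 0.09) and -0.23 (SE 0.09), both with 4 of 4 pairs lower. DUSP5, a nuclear ERK phosphatase, differed in sign between the lines, with pairs of -0.41, -0.03, 0.46 and 1.13.

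The 32 tested immediate early genes, first responders to many stimuli, had a median of -0.04 and none called. In all 4 pairs 6 members were lower and 1 higher, beside 4.50% and 9.00% of all genes. JUNB, an AP-1 subunit, stayed between 25.3 and 30.7 in HTB-182 and went from 304 and 198 with estradiol to 88.3 and 93.6 with estradiol-BSA in A549. The orphan receptor NR4A3 had a mean of -0.30 (SE 0.11) and the matricellular protein gene CCN1 of -0.28 (SE 0.10), both lower in 4 of 4 pairs. CCN1's other probe set, dimmer but above the filter, had a mean of 0.19. DUSP1, a phosphatase of stress kinases, was the member higher in all pairs, at 130 and 128 against 152 and 157 in HTB-182 and 721 and 783 against 1044 and 1085 in A549. Its mean was 0.36 (SE 0.09), and its 2 other probe sets gave -0.12 and 0.05.

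**Figure D2:**
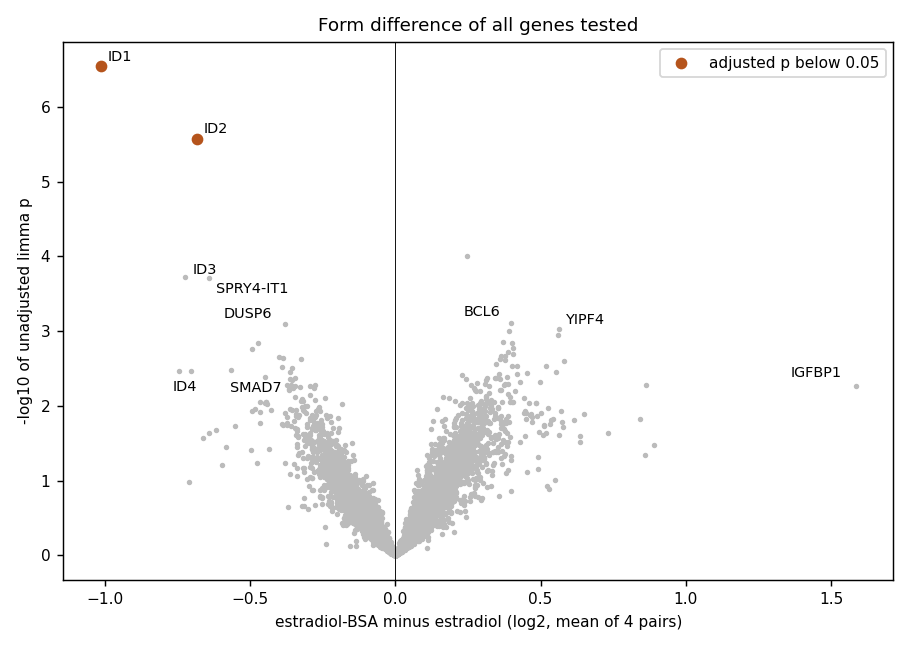
Mean difference of the 4 pairs (x axis, log2, estradiol-BSA minus estradiol) against the -log10 of the unadjusted limma p (y axis) for the 12969 genes tested. ID1 and ID2, the filled points, are the 2 genes past the adjusted threshold, and IGFBP1 lies farthest to the right with a larger spread between its pairs.

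Beyond these lists, the genes with the largest weakest-pair difference were named. Across all genes 584 were lower in all 4 pairs (4.50%) and 1167 higher (9.00%), a share of 66.6% on the higher side that became 57.0% after quantile normalization. The lower ones not yet described were LRCH1, RUSC1-AS1, BIN1, OLIG2, H1-3 and SBK1, with means of -0.39 to -0.28 and none called. OLIG2, a basic helix-loop-helix factor, read 59.9 and 66.3 against 41.0 and 46.5 in HTB-182 and was dim in A549, at 7.09 to 13.7. BIN1, which bends membranes, had 4 other probe sets at -0.18 to 0.00, and the kinase gene SBK1 had another at 0.00. On the higher side no gene passed and none was 1.25-fold up in all pairs.

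BCL6, a transcriptional repressor, read 207 and 286 with estradiol and 305 and 373 with estradiol-BSA in HTB-182, and 314 and 356 against 421 and 438 in A549. All estradiol arrays of a line lay below its estradiol-BSA arrays, and the mean was 0.40 (SE 0.09, 4 pairs, adjusted p = 0.843 in limma), but its 2 other probe sets gave -0.13 and 0.03. YIPF4, a Golgi membrane protein, gave 0.63, 0.27, 1.03 and 0.33, with others at -0.08 to 0.03. CDK8, the kinase of the Mediator complex, gave 0.32, 0.28, 0.27 and 0.62, with others at -0.22 and 0.24. ELF3, an epithelial ETS factor, read 40.9 and 49.3 against 50.5 and 60.2 in HTB-182 and 575 and 507 against 808 and 724 in A549, and its 2 other probe sets gave 0.15 and 0.30, the same side. ZNF367, a zinc finger factor, had a mean of 0.41 (SE 0.10) and no other probe set. The remaining ones, SECISBP2L, SUDS3, LINC00938, CLIP1, ALG13, C4orf46 and NFATC2IP, had means of 0.32 to 0.55. Of those, SECISBP2L, at 0.40, had its other probe set at -0.26, and CLIP1 had 5 others at -0.42 to 0.09. NFATC2IP, at 0.55, had 5 others at -0.27 to 0.03, and SUDS3, at 0.36, had another at -0.07. ALG13 had 4 others at -0.01 to 0.23 and C4orf46 another at 0.05.

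**Figure D3:**
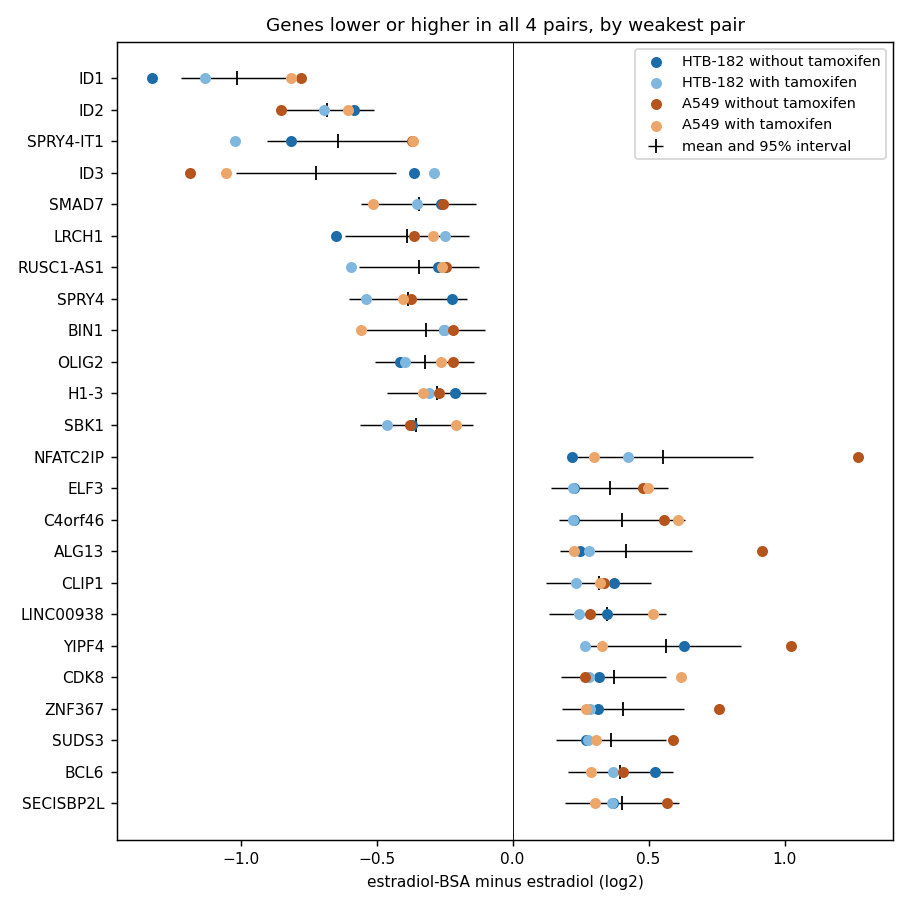
Difference (log2, estradiol-BSA minus estradiol) of each pair, with the mean and 95% interval, for the 12 genes lower and the 12 genes higher in all 4 pairs with the largest weakest pair. ID1 lies between -1.33 and -0.78, and the largest weakest pair among the 12 higher genes is 0.30, that of SECISBP2L.

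The estrogen receptors themselves were dim, and none passed the test between the forms. ESR1 read 18.5 and 26.3 with estradiol and 17.5 and 17.7 with estradiol-BSA in HTB-182, and 19.9 and 26.2 against 20.8 and 21.2 in A549. Its mean was -0.13 (SE 0.09) and that of ESR2 0.03 (SE 0.08). GPER1, the membrane receptor, gave 0.46, -0.08, 0.29 and -0.21, for a mean of 0.12 (SE 0.11), and PGR was below the filter. The probe sets used for ESR1, ESR2 and GPER1 had mean intensities of 21.0, 26.2 and 24.6, near the filter at 19.4. Every other probe set of these genes was below it, at 3.49 to 17.1 for ESR1, 3.39 to 11.0 for ESR2 and 5.98 for GPER1. Adjusted p-values of ESR1, ESR2 and GPER1 were 0.952 to 0.985 in limma. None of the 17 tested receptors and coregulators passed, with 2 higher and 0 lower in all 4 pairs, beside 9.00% and 4.50% of all genes.

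Classical estrogen targets, known mostly from breast cells with ESR1, gave no call among the 29 tested. In all 4 pairs 3 were higher and 1 lower, beside 9.00% and 4.50% of all genes, and the median was -0.002 against -0.003 for all genes. The secreted trefoil factor TFF3 gave 0.48, 0.37, 0.30 and -0.17, the lysosomal protease CTSD gave 0.40, 0.26, 0.12 and 0.02, and the survival gene BCL2 gave 0.15, 0.42, 0.27 and 0.19 with 3 other probe sets at -0.12 to -0.03. Of 24 tested genes of membrane estrogen signalling, such as caveolar proteins, G protein subunits and growth factor receptors, none passed. In all 4 pairs 3 were higher and 1 lower, where 9.00% and 4.50% of all genes were. GNAI1, an inhibitory G protein subunit, had a mean of 0.39 (SE 0.11) with the A549 pair without tamoxifen at 0.87. CAVIN1, a coat protein of caveolae, gave -0.67, -0.59, 0.04 and 0.02, and its 2 other probe sets gave -0.29 and 0.31. For the 21 enzymes that make or inactivate estrogens the median was 0.01, and HSD17B14, a hydroxysteroid dehydrogenase, was at -0.19 (SE 0.11). The 14 tested genes of albumin uptake and recycling, listed because the conjugate carries albumin, had a median of -0.01, and FCGRT, the recycling receptor for albumin, gave -0.07, -0.15, -0.28 and -0.23.

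Stress and metabolic lists held no called gene, and their counts stand beside 4.50% of all genes lower and 9.00% higher in all 4 pairs. Of 23 tested chaperone genes of the unfolded protein response, which act in the endoplasmic reticulum, 7 were lower and 1 higher in all 4 pairs, with a median of -0.08. By pair the medians were 0.02, 0.00, -0.28 and -0.08, so the low value was that of the A549 pair without tamoxifen, whose median over all genes was -0.10. DNAJB9, a cofactor of the main chaperone there, gave -0.09, -0.10, -0.43 and -0.41, and HSP90B1, another resident chaperone, gave -0.03, -0.60, -0.71 and -0.15. HERPUD1, of the degradation branch, and SDF2L1 had means of -0.22 (SE 0.08) and -0.25 (SE 0.11). Of 28 genes of the integrated stress response, 2 were lower and 1 higher in all pairs. Its members SESN2, an inhibitor of mTORC1 signalling, and PSPH, of serine synthesis, gave -0.87 and -0.74, and 0.70 and 0.65, in the A549 pairs and between -0.11 and 0.12 in HTB-182. Sterol synthesis and uptake had 6 of 21 lower and 0 higher, with a median of -0.07, among them SQLE at -0.20 (SE 0.08) and MSMO1 at -0.17 (SE 0.07), both enzymes of the pathway. Hypoxia and glycolysis genes had a median of 0.01 over 32, and NDRG1, a hypoxia-induced gene, gave -0.32, -0.59, -2.01 and 0.54.

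On the higher side, 7 of 29 NRF2 targets were higher in all 4 pairs and 0 lower, against 9.00% and 4.50% of all genes, with a median of 0.01. Among the higher ones, UGDH, GSR and TXNRD1, enzymes of glucuronidation and of glutathione and thioredoxin reduction, had means of 0.23 (SE 0.07), 0.22 (SE 0.09) and 0.14 (SE 0.05). GSR's other probe set gave -0.12. Glucocorticoid receptor targets had 5 of 19 higher and 0 lower, BCL6 and DUSP1 among them, with a median of 0.00. The heat shock response had 5 of 19 higher and 1 lower. Its cochaperones DNAJB4 and CHORDC1 had means of 0.44 (SE 0.14) and 0.29 (SE 0.12), with the A549 pair without tamoxifen highest at 1.01 and 0.89. Their other probe sets gave 0.07 for DNAJB4 and, below the filter, -0.08 for CHORDC1. NF-kB and cytokine genes had 4 of 19 higher and 0 lower. The chemokine gene CXCL8 was dim in HTB-182 and read 101 and 68.7 with estradiol and 156 and 207 with estradiol-BSA in A549. CXCL1 gave 0.64 and 0.31 there, CXCL2 0.53 and 0.76, and NFKBIA, the inhibitor of NF-kB, -0.66 and 0.09.

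Cell cycle lists held no called gene either, and the counts below stand beside 9.00% of all genes higher and 4.50% lower in all 4 pairs. Of 26 G1/S and replication genes 5 were higher and 0 lower in all 4 pairs, with a median of -0.01, and of 27 G2/M genes 3 were higher and 2 lower, with a median of -0.02. CCNE2, a G1/S cyclin, had a mean of 0.31 (SE 0.11) and CDT1, a licensing factor, of 0.22 (SE 0.09), while CENPF, of the kinetochore, had -0.20 (SE 0.08). CCNE2's other probe set gave -0.14 and that of CDT1 -0.02. For p53 targets the median was -0.03 over 21, and MDM2, the ligase that degrades p53, gave 0.02, -0.06, 0.62 and 0.48. Apoptosis regulators had 3 of 21 higher and 3 lower, with PMAIP1, a death-promoting BH3 protein, at -0.30 (SE 0.10). Medians over 26 interferon-stimulated genes, 30 autophagy and lysosome genes, 25 contractile actin and YAP or SRF targets, 15 LXR and fatty acid genes and 9 aryl hydrocarbon receptor targets were 0.03, -0.03, 0.04, -0.04 and 0.07. None of those lists held a called gene.

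**Figure D4:**
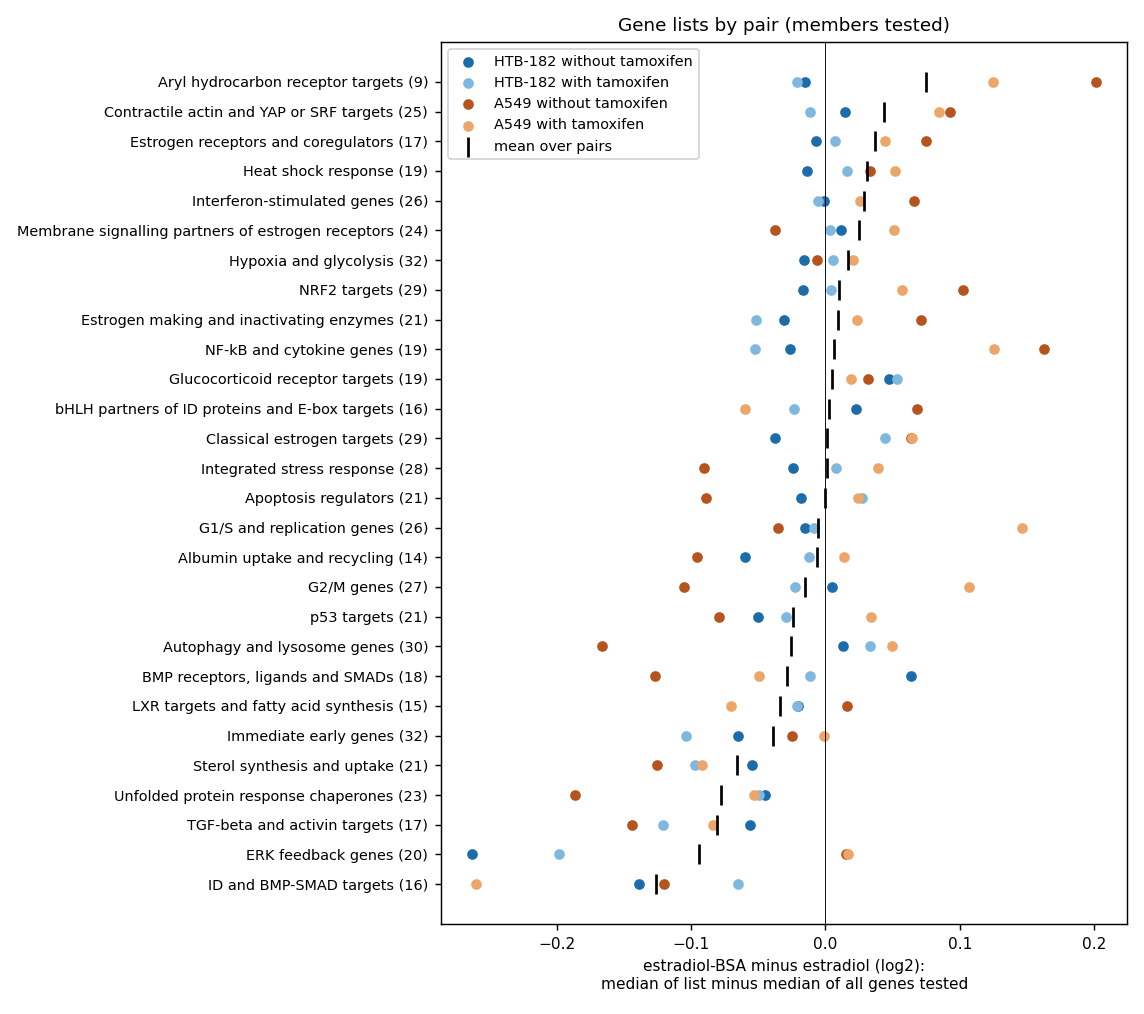
Median difference of each of 28 gene lists minus the median of all genes tested (x axis, log2), for each pair and for the mean over pairs, with the number of members tested in brackets. ID and BMP-SMAD targets and ERK feedback genes are at the low end, the latter through the HTB-182 pairs, and the colours spread widely within most lists.

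The forms stood farthest apart in the A549 pair without tamoxifen, which rests on the array apart on the second component. The median absolute difference over all genes was 0.21 in that pair, 0.11 in the other A549 pair, and 0.0975 and 0.0973 in the HTB-182 pairs without and with tamoxifen. In A549 81 and 41 genes were at least 2-fold higher and 47 and 7 at least 2-fold lower in the pairs without and with tamoxifen. In HTB-182 the counts were 0 and 3 higher and 4 and 9 lower. Across genes, which are not independent replicates, pair differences correlated at r = 0.18 between both HTB-182 pairs and 0.11 between both A549 pairs, and at -0.06 to 0.08 between lines. A fit with a term for the line gave each line's own difference and a test between lines. Within HTB-182 it called ID1 alone (0.00771% of genes, difference -1.23, SE 0.09, adjusted p = 0.0123 in limma), with 378 genes (2.91%) at an unadjusted p of 0.05. Within A549 it called 17 genes (0.131%), with 1709 (13.2%) at an unadjusted p of 0.05. For each gene both lines share 1 spread in this fit, so the counts of 17 and 1 do not measure a contrast between lines. With array quality weights 13 genes were called in each line. An unadjusted p below 0.05 was then given to 759 genes in A549 and 1973 in HTB-182, and ID1 in A549 had an adjusted p of 0.0581 in limma.

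Of these 17 genes, 5 rose in A549 and 12 fell. Among the fallen were 3 ID genes and BAMBI, with ID1 at -0.80 (SE 0.09), ID3 at -1.12 (SE 0.08), ID4 at -1.29 (SE 0.11) and BAMBI at -0.97 (SE 0.10) and adjusted p-values of 0.00468 to 0.0226 in limma. The growth factor receptor gene ERBB2 read 354 and 328 with estradiol and 131 and 118 with estradiol-BSA in A549, and stayed between 48.1 and 59.9 in HTB-182. Its difference in A549 was -1.35 (SE 0.11, adjusted p = 0.00594 in limma). ID3, ID4, ERBB2 and AXIN2 were the 4 genes at least 2-fold lower in both A549 pairs (0.0308%). AXIN2, a feedback target of Wnt signalling, read 228 and 168 against 65.9 and 61.9, a difference of -1.41 (SE 0.12), while its 3 other probe sets gave -0.09 to 0.13 over all pairs. JUNB fell by 1.29, FOXQ1, a forkhead factor, by 0.85, and BCL2L11, which encodes the death-promoting protein BIM, by 0.94. ZNF703, a transcriptional repressor, fell by 0.97, THBD, the thrombin receptor thrombomodulin, by 0.94, and the cytokine gene IL11 by 0.99. The other probe sets above the filter were closer to 0 in A549, with IL11 at -0.02 and -0.22, THBD at -0.83 and -0.23, and the 5 of BCL2L11 between -0.70 and 0.12. Those of ID4 gave -0.33 and -1.39, -0.54 and -0.16, and -0.30 and -0.90 in the A549 pairs. None of these was 2-fold lower in both pairs. Within HTB-182 these genes other than ID1 and ID3 had differences between -0.15 and 0.21.

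IGFBP1, a secreted binder of insulin-like growth factors, rose in A549 and was the gene of largest difference. It read 121 and 67.0 with estradiol and 939 and 851 with estradiol-BSA there, 73.9 with vehicle, and between 13.6 and 18.1 on all HTB-182 arrays. The difference was 3.09 in A549 (SE 0.16, adjusted p = 0.000847 in limma) and 0.08 in HTB-182. It was the only gene called for a difference between lines (0.00771%), by 3.02 (SE 0.23, adjusted p = 0.0143 in limma), beside 1233 genes (9.51%) at an unadjusted p of 0.05. That call was lost at a pseudocount of 1, with an adjusted p of 0.0629, and with the median over its probe sets, with 0.345, where its dimmer probe set, below the filter, gave a mean of -0.0033 over all pairs.

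The other 4 that rose in A549 were LIMD1, IL6R, MIA2 and CAVIN2. IL6R, the receptor for interleukin-6, read 29.8 and 27.7 against 90.3 and 104 there, a difference of 1.34 (SE 0.12), and its other probe set above the filter gave 0.55 and 0.35. LIMD1, a LIM domain scaffold, gave 1.64 (SE 0.12), but its 4 other probe sets gave -0.05 to 0.09 over all pairs. CAVIN2, of the caveolar coat, read 86.8 and 111 against 224 and 213 in A549 and 2154 and 2510 against 2203 and 2527 in HTB-182, while its other probe set gave -0.15 and 0.44 in A549. MIA2, which helps load secretory cargo, gave 1.17 in A549 and -0.27 in HTB-182. Apart from IGFBP1, no gene of the 17 passed the test between lines, with adjusted p-values of 0.0891 to 0.518 in limma. TMEM45B, a membrane protein, went the other way. It gave -1.14 in both HTB-182 pairs, with 151 and 161 on the estradiol-BSA arrays, and was dim in A549, at 10.3 to 21.3. With ID1 it made up the 2 genes at least 2-fold lower in both HTB-182 pairs (0.0154%), but its other probe set had a mean of -0.05.

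**Figure D5:**
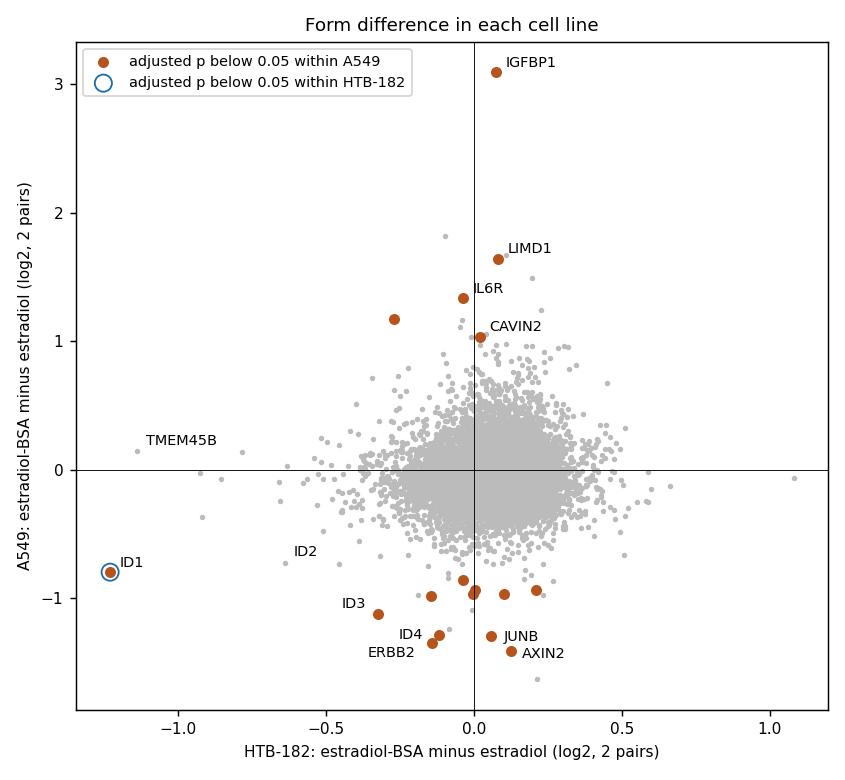
Difference of each gene (log2, estradiol-BSA minus estradiol) in HTB-182 (x axis) and A549 (y axis), each the mean of 2 pairs, with the 17 genes called within A549 filled and the gene called within HTB-182 circled. ID1 is both, at -1.23 and -0.80, and the other called genes lie between -0.33, that of ID3, and 0.21, that of BCL2L11, on the HTB-182 axis.

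Tamoxifen was present in 1 pair of each line, and a term for it tested whether the forms differed by another amount in its presence. ID1 and ID2 had pair differences without tamoxifen of -1.33 and -0.78, and -0.58 and -0.85, and with it of -1.13 and -0.82, and -0.69 and -0.61, which overlap. The term called 2 genes (0.0154%), SEMA3A and CLN8-AS1, beside 358 (2.76%) at an unadjusted p of 0.05. SEMA3A, a secreted guidance cue, read 261 with estradiol and 73.0 with estradiol-BSA in A549 without tamoxifen, and 55.5 and 282 with it. The order of the forms was thus opposite in the A549 pairs, at -1.64 and 2.06, while all HTB-182 arrays read 7.89 to 10.3. The noncoding RNA CLN8-AS1 read 306 and 47.7, and 62.4 and 234, in A549, pairs of -2.34 and 1.67, and 21.8 to 24.2 in HTB-182. Both had an adjusted p of 0.0362 in limma. SEMA3A had its 2 other probe sets, below the filter, at -0.25 and 0.36. In A549 both genes were thus high on the array with estradiol alone, the array apart on the second component, and on the array with estradiol-BSA and tamoxifen. They were low on the other 2 treated arrays and on the vehicle array, at 63.5 and 55.2. Both calls were lost without the A549 pair with tamoxifen, at adjusted p-values of 0.445 and 0.0504 in limma, and under centring of the array medians, at 0.997, and that of CLN8-AS1 also without the other A549 pair, at 0.684.

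Other genes had a gap between the pairs with and without tamoxifen in both lines, with none called. The genes named were picked for the largest gaps, and the share of all genes with a gap is not given here. Those whose difference was more positive with tamoxifen than without were ERLN, OLFML2A, ACTA2, TLCD2, PDGFRL and SDC4. ACTA2, smooth muscle actin, gave -0.59 and -0.85 without tamoxifen and 0.45 and -0.06 with it, so its A549 pair with tamoxifen was not above 0. OLFML2A gave -0.25 and -0.16 without tamoxifen and 0.51 and 1.16 with it. ERLN gave -0.07 and -0.25, then 0.65 and 1.00. Those with a more negative difference were SNX29, PGBD5, LINC02175, MAGEA1, GRAMD2A and PDLIM4. SNX29, a sorting nexin, gave 0.23 and 0.15 without tamoxifen and -0.69 and -0.61 with it, and its 4 other probe sets were at 0.00 to 0.09 over all pairs. PGBD5, a transposase-derived gene, gave 0.50 and 0.29, then -0.46 and -0.53.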

How the data were processed

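The authors deposited linear array intensities, computed with MAS5 according to the submitters' processing notes, with no version or scaling target named in the sources used here. Of 54675 probe sets, 62 controls were left out. Only the 41091 probe sets with 1 gene in the platform annotation were used (1801 name several genes and 11721 none here), each of 19775 genes by its brightest one, and RefSeq's table held 41037 of their gene numbers. Genes with a mean log2(intensity + 16) at or above the median of all probe sets, an intensity of 19.4, were tested, 12969 in all. limma (version 3.58.1, R 4.3.3) was fitted to 8 arrays with the pair as a block and an intensity trend, leaving 3 residual degrees of freedom, and 2 with a tamoxifen or line term. The pairs come from the design, by line and tamoxifen. Tests are two-sided, with Benjamini-Hochberg adjustment over all genes. The fit was tested on simulated data.

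The compared arrays, the 28 gene lists, the 5 marker lists and the naming rule were chosen with earlier results of these data known. The rule names called genes, up to 12 genes per direction with the largest weakest-pair difference, up to 6 per direction of each interaction, up to 6 members of each list, ID1 to ID4 and the estrogen receptors. Genes called within 1 line were added, and members with smaller changes are counted only. Alternatives changed the scaling, pseudocount, filter, probe set rule, array weights, trend, block and arrays. The number of arrays limits the precision.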

Additional observations from a re-analysis of the deposited data

Results flagged for a closer look

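The difference between estrogen forms itself differed between groups of pairs for 3 genes by a limma interaction test. For IGFBP1 it was 3.02 larger in A549 than in HTB-182. For CLN8-AS1 it was 2.03 larger with tamoxifen than without, and for SEMA3A 1.90 larger, both from the A549 pairs alone. The calls of CLN8-AS1 and SEMA3A were lost after quantile normalization and centring of the array medians, among other alternatives. That of IGFBP1 was lost at a pseudocount of 1 and with the median over its probe sets.

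Among the 4 pair differences of each of 104 genes named here, 10 genes had 1 pair far from the other 3 by Dixon's criterion. Chance meets that criterion in about 1 of 20 sets of unselected values. Most of the genes here were named by the size of these same differences, so that rate does not apply to them and the 10 are a description. In 7 of these the odd pair was A549 without tamoxifen, which contains the array apart on the second principal component. There the difference was 0.92 for ALG13, -2.07 for BMP6, 0.71 for CCNE2, 0.89 for CHORDC1, 0.87 for GNAI1, 0.59 for SUDS3 and 0.76 for ZNF367. A549 with tamoxifen was the odd pair for BIN1, at -0.56, and for CDK8, at 0.62. HTB-182 with tamoxifen was the odd pair for RUSC1-AS1, at -0.60.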

How the results depend on the processing

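The count of 2 genes called between the forms became 1 after quantile normalization (ID2, with ID1 at an adjusted p of 0.0521), 1 with centred array medians (ID1, with ID2 at 0.0508), 1 with the median of a gene's probe sets and 1 with all 10 arrays (cell line and tamoxifen as additive terms), where ID2 had 0.999. It became 10 with array quality weights and 0 without the intensity trend, where 669 genes had an unadjusted p below 0.05 in limma. Leaving out each pair in turn gave 0 to 5, the 0 being without A549 with tamoxifen, where 686 genes had an unadjusted p below 0.05. Without the pair block the same 2 genes were called. ID1 had adjusted p-values between 3.80e-07 and 0.186 over all alternatives and ID2 between 6.02e-05 and 0.999, with no change of sign. The tamoxifen count of 2 became 7 at a pseudocount of 1, 12 with the filter at an intensity of 50, 15 with weights, and 0 after quantile normalization, centring, a pseudocount of 64, no filter, the median or every probe set, no trend or all 10 arrays (with 116 to 595 genes at an unadjusted p below 0.05), and 5 to 454 when a pair was left out. Robust moderation called 2 others. The line count of 1 became 0 at a pseudocount of 1 and with the median of probe sets (1213 and 1067 genes at an unadjusted p below 0.05), 11 with weights, 3 with robust moderation, 5 with all 10 arrays, and 14 to 3105 when a pair was left out. The A549 count of 17 became 11 after quantile normalization and 2 with the median of probe sets, and 169 to 3850 when a pair was left out. The HTB-182 count of 1 became 13 with weights and 0 without the trend (416 genes at an unadjusted p below 0.05), and 5 to 15 when a pair was left out. A line left with 1 pair is assumed to vary like the other, so those counts carry no replicate check. Without the block, an alternative chosen after seeing the data for these tests, the tamoxifen, line, A549 and HTB-182 counts were 0 (335 genes at an unadjusted p below 0.05), 7, 32 and 3.

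With the median of a gene's probe sets the sign turned for BCL6 (-0.087), YIPF4 (-0.039), CLIP1 (-0.11), DUSP1 (-0.080), BCL2 (-0.057), CAVIN1 (0.057), CENPF (0.060) and LIMD1 (-0.078 between lines, -0.057 in A549). HSD17B14 turned to 0.045 with all 10 arrays. The line difference of TMEM45B turned to -0.056 at a pseudocount of 64 and -0.20 with all 10 arrays, and ranged from -0.18 to 1.29 when a pair was left out. For HSD17B14 and CENPF the turned values, 0.045 and 0.060, equal the mean of another probe set of the same gene. In settings with 1 probe set per gene the brightest was picked anew, so the values of TMEM45B may come from different probe sets. The cause of the other changes was not tested. Intensities near background, as for SPRY4-IT1, OLIG2 and the estrogen receptors, limit what their differences can show.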

Other observations

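Genes of the mitochondrial genome, looked at after their values were seen and outside the naming rule, include the gene with the third smallest p. ATP6, a subunit of ATP synthase, gave pair differences of 0.27, 0.23, 0.34 and 0.15 at its bright probe set, for a mean of 0.25 and an adjusted p of 0.422 in limma. Its dimmer probe set gave 0.10, -0.09, 0.56 and -0.04. COX2, of the respiratory chain, had means of 0.04 at both its probe sets, ND4 of 0.04 and 0.11, ND2 of 0.08 and COX1 of -0.07. COX3 had a mean of 0.73 through 2.3 in the A549 pair without tamoxifen, with 0.15 to 0.31 in the other pairs.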
